A study of Saccharomyces cerevisiae with 14 samples.

Results

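Transcript levels of lager yeast 80 h after pitching were compared with those at 30 h of the same brewery fermentation, on 3 arrays of 80 h and 2 arrays of 30 h, which are 5 of the 14 arrays in the series. The arrays were chosen by the time in their labels. The comparison passes over 60 h, the time between them, where 2 of 3 arrays had low 5′ signal of control transcripts. The yeast was the lager strain CB11, and both groups came from a single vessel of 3275 hL holding wort of 17 °Plato, made from 85% malt and 15% sugar adjunct and oxygenated to 25 mg/L before filling. The yeast batch had served in 4 earlier fermentations. The labels name no separate fermentation for any replicate, so all p-values measure the spread between samples of 1 vessel, which may be technical. Age after pitching and anything else that changed in that vessel between these times cannot be told apart. RNA was measured on Affymetrix Yeast Genome 2.0 arrays, in which a probe set reports 1 transcript as a signal intensity. Of the probe sets for S. cerevisiae, 5306 for 5267 genes were above background often enough to be tested.

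In wort, brewing yeast takes up glucose and fructose first and then maltose and maltotriose, and it ferments them to ethanol because glucose represses respiration and the use of other carbon sources. Oxygen is given at the start only, is consumed within hours, and serves the synthesis of sterols and unsaturated fatty acids, which the cells share out among their daughters as they divide. Growth ends long before the ethanol and flavour compounds of the beer are complete, so late cells can differ from early ones in sugar, ethanol, nitrogen source and division. The labels give no oxygen level for 30 h or 80 h.

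Before normalization the deposited arrays had median signals of 35.7 and 32.9 at 30 h and 30.9, 31.9 and 27.6 at 80 h. The log2 ratio of 5′ to 3′ signal over 7 control transcripts was -1.24 and -1.13 at 30 h and -0.69, -0.80 and -0.94 at 80 h. Signal from the 5′ ends was thus lower at 30 h with no overlap between the times, and the part of this in the results was not tested. The 80 h arrays correlated with each other at 0.993 to 0.987, over log2 signals of all tested probe sets. The 30 h arrays were further apart, at 0.974. The median standard deviation between replicates of a time was 0.16 at 30 h against 0.11 at 80 h. Replicate 2 of 30 h lay close to replicates 2 and 3 of 8 h (r of 0.987 and 0.987). Replicate 1 of 30 h lay nearer to 80 h for 69.2% of the probe sets that rose and 71.9% of those that fell, against 62.5% of all tested. With 1 array left at 30 h, the fit takes its spread from the 80 h arrays. Values without a 30 h array are therefore given as changes or medians, without a p or a call.

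Of the 5306 probe sets, 1241 were higher and 1176 were lower at 80 h (limma moderated test on log2 signals, Benjamini-Hochberg adjusted p under 0.05), which is 23.4% and 22.2%, or 45.6% in either direction. At least 2-fold changes past the test were 333 rises (6.28%) and 249 falls (4.69%). The arrays of both times did not overlap for 3561 probe sets (67.1%), so separate arrays of a gene below are common. The largest rises and falls were chosen among such probe sets, so theirs are separate by selection. Group members named below were mostly those past the test with the largest changes. Their separate arrays follow largely from that choice and are no further support. The median change over all tested was 0.01 on the log2 scale, and rises made up 51.3% of the calls. On the authors' scale as deposited that median was 0.35, and 2113 rises and 460 falls were called (82.1% rises). With arrays centred on their S. cerevisiae median it was -0.10, with 992 rises and 1481 falls (40.1%). No probe set was called in the opposite direction in either setting. HXT4 and HSP26, whose 30 h arrays lay far apart, also passed on the authors' scale. Calls on that scale can thus differ from the main ones through the spread used by the fit as well as through the scaling. These parts were not told apart. The shares over all tested probe sets in the main fit are the background for every group of genes below. A group whose share lies near them is not set apart by its count. Changes below are log2(80 h) minus log2(30 h) ± standard error (n = 3 and 2 arrays), and every adjusted p is from the limma fit over all tested probe sets. Levels are quantile normalized signals given in the order of the replicate numbers.

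The largest rise belonged to FBP1, which encodes fructose-1,6-bisphosphatase, the gluconeogenic enzyme that glucose represses and destroys. Its signal was 101 and 50.8 at 30 h and 1066, 1067 and 1184 at 80 h, a rise of 3.95 ± 0.25 or 15.4-fold (adjusted p = 7.1e-05). NCA3, a SUN family gene tied to the mitochondrial ATP synthase and the cell wall, came second with 1067 and 233 at 30 h and 6324, 7011 and 6567 at 80 h (log2 change 3.73 ± 0.50, adjusted p = 9.7e-04), and its paralog SUN4, a wall glucanase of cell separation, moved the other way with 211 and 338 at 30 h and 67.4, 51.3 and 53.0 at 80 h (log2 change -2.23 ± 0.23, adjusted p = 4.0e-04). PHO84, the high-affinity phosphate transporter, was 45.7 and 34.7 at 30 h and 456, 478 and 631 at 80 h (log2 change 3.70 ± 0.19, adjusted p = 6.3e-05). GLY1, the threonine aldolase that makes glycine, was 39.9 and 48.6 at 30 h and 414, 386 and 236 at 80 h (log2 change 2.93 ± 0.24, adjusted p = 2.0e-04). INO1, inositol 3-phosphate synthase and the first step from glucose 6-phosphate to inositol, was 855 and 343 at 30 h and 3131, 3315 and 2884 at 80 h (log2 change 2.52 ± 0.31, adjusted p = 7.7e-04). TIS11, an mRNA-decay protein of the iron-starvation response, reached 161, 179.6 and 181 from 28.9 and 22.4 (log2 change 2.77 ± 0.18, adjusted p = 7.4e-05). SLF1, an RNA-binding protein that acts in copper tolerance and translation, reached 128, 259 and 123 from 21.2 and 26.5 (log2 change 2.75 ± 0.32, adjusted p = 6.6e-04), with 1 of its 30 h arrays below background. SRO9, an RNA-binding protein found on ribosomes, was below background on both 30 h arrays and is at least 2.90-fold higher at 80 h. Its adjusted p of 0.003 is for the log2 change of 2.63 ± 0.47, with replicate 1 of 30 h at the floor of 5.58, and not for that fold. The rises of AQY1, an aquaporin, GRE1, a hydrophilin of the stress response, and GAS2, a spore wall glucanosyltransferase, were 2.90 ± 0.60, 2.58 ± 0.61 and 3.15 ± 0.59 but rested on unlike 30 h arrays. AQY1 was 374 and 64.6 at 30 h and 1565, 1080.1 and 926 at 80 h, and GAS2 was below background on 1 of its 30 h arrays. The rises without replicate 1 of 30 h and without replicate 2 of 30 h were 4.17 and 1.63 for AQY1, 3.92 and 1.24 for GRE1, 4.83 and 2.63 for NCA3, and 3.18 and 1.86 for INO1. GAS2 rose by 1.95 against its 30 h array above background, that of replicate 2.

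**Figure D1:**
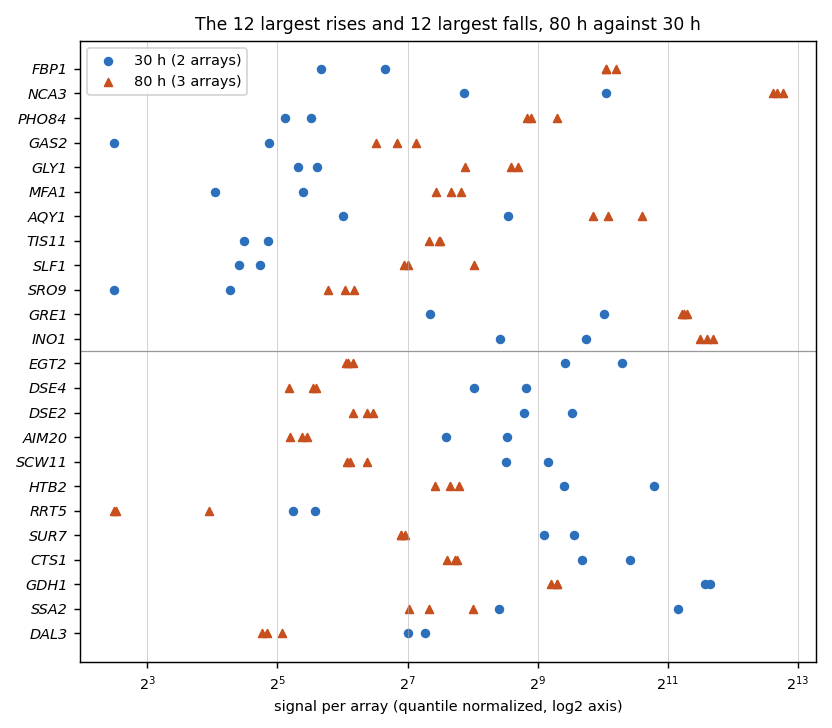
Signal of the 24 genes with the largest changes on each of the 5 arrays, on a log2 axis, with circles for 30 h and triangles for 80 h and a line between the rises above and the falls below. The groups of FBP1, PHO84 and GLY1 lie far apart, while the 30 h circles of NCA3, AQY1, GRE1 and SSA2 are widely spread.

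Genes by which a daughter cell digests the wall that joins it to its mother were among the 12 largest falls, together with other genes given below. EGT2, a wall endoglucanase, was 685 and 1259 at 30 h and 66.1, 71.3 and 68.0 at 80 h, a fall of 13.6-fold (log2 change -3.76 ± 0.23, adjusted p = 7.0e-05). DSE4, the daughter-specific endoglucanase, was 259.8 and 453 at 30 h and 48.1, 46.5 and 36.3 at 80 h (log2 change -2.99 ± 0.25, adjusted p = 2.0e-04). DSE2, another daughter-specific wall protein, was 441 and 743 at 30 h and 71.5, 88.2 and 82.7 at 80 h (log2 change -2.83 ± 0.22, adjusted p = 1.4e-04). SCW11, a glucanase, fell by 2.66 ± 0.21 and CTS1, the chitinase that cuts the septum, by 2.36 ± 0.20 on the log2 scale, from 366 and 575 to 67.0, 82.9 and 69.4 for the former. In each of these genes the 30 h array of replicate 2 was the higher of its pair. In such bulk samples, fewer cells of a kind and less RNA per cell cannot be told apart. AIM20, SUR7, of the membrane compartment of eisosomes, and the histone gene HTB2 were also among the 12 largest falls, at -2.71 ± 0.27, -2.41 ± 0.16 and -2.48 ± 0.34, the last being -3.17 without replicate 1 and -1.78 without replicate 2 of 30 h. The list closed with GDH1, the ammonium-assimilating glutamate dehydrogenase, DAL3, the ureidoglycolate lyase of allantoin use, RRT5, and SSA2, a cytosolic Hsp70. RRT5 was below background on all 80 h arrays and at least 1.92-fold higher at 30 h. Its adjusted p of 0.0061 is for the log2 change of -2.43 ± 0.52, with replicate 3 of 80 h at the floor of 5.58, and not for that fold. SSA2 was 338 and 2286 at 30 h and 160.2, 256 and 130.0 at 80 h, with the arrays of 30 h almost as far apart as the times (log2 change -2.33 ± 0.66, adjusted p = 0.021), and it is near-identical to SSA1, so the assignment of its signal is uncertain. Its change was -3.71 without replicate 1 and -0.95 without replicate 2 of 30 h, and without replicates 1 or 3 of 80 h the call ended (adjusted p = 0.067 and 0.087).

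Among 17 tested genes for hexose transporters and sensors, 3 were higher and 4 lower (41.2% against 45.4% of all genes). HXT1, the low-affinity transporter induced by abundant glucose, was 124 and 126 at 30 h and 70.8, 43.0 and 53.1 at 80 h, all 80 h arrays being lower (log2 change -1.20 ± 0.23, adjusted p = 0.0037). HXT3, also of low affinity, was 232 and 297 at 30 h and 196, 219.6 and 182 at 80 h and did not pass (log2 change -0.40 ± 0.15, adjusted p = 0.061). Its change was -0.58 without replicate 1 of 30 h and -0.22 without replicate 2. HXT4 was 96.8 and 805 at 30 h and 90.3, 103 and 96.0 at 80 h, and here replicate 1 of 30 h sat with the 80 h arrays while replicate 2 stood alone (log2 change -1.54 ± 0.69, adjusted p = 0.1, or -3.06 without replicate 1 of 30 h). On the authors' scale HXT4 passed at -1.14 (limma adjusted p = 6.1e-06), but so small a p does not measure the gap between its 30 h arrays. Without replicate 2 of 30 h the change of HXT4 was -0.01, so the difference rests on that array. HXT5, the transporter of slow growth and starvation, was 325 and 135 at 30 h and 753, 721 and 805 at 80 h (log2 change 1.86 ± 0.30, adjusted p = 0.002), and the change was 1.23 without replicate 2 and 2.49 without replicate 1 of 30 h. HXT15 and GAL2, the galactose permease, rose by 1.50 ± 0.25 and 1.01 ± 0.15 at low levels, HXT15 from 40.3 and 26.5 to between 75.5 and 109. The median of the group was -0.02, or 0.11 without replicate 1 and -0.10 without replicate 2 of 30 h. Probe sets of the HXT family can share signal through near-identical members, so single assignments are uncertain.

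Of 10 tested genes for the main wort sugars 4 were lower and 1 was higher (50.0% against 45.4% of all genes). MAL31, a maltose permease gene, was 5247 and 5588 at 30 h and 2651, 2976 and 2939.6 at 80 h (log2 change -0.93 ± 0.11, adjusted p = 6.9e-04). MAL32, a maltase gene whose copies are near-identical across loci, was 8316 and 8694 at 30 h and 5036, 5067 and 5047 at 80 h (log2 change -0.75 ± 0.10, adjusted p = 0.001). IMA1, an isomaltase gene, was 4447 and 5067 at 30 h and 1988, 1929.5 and 1744 at 80 h (log2 change -1.33 ± 0.12, adjusted p = 2.3e-04). In all 3 genes the arrays of both times were separate, and the 80 h signals still lay between 1744 and 5067. MAL11, an alpha-glucoside permease gene that also carries maltotriose, rose instead, with 419 and 451 at 30 h and 611, 680.4 and 714 at 80 h (log2 change 0.62 ± 0.12, adjusted p = 0.004), a call that ended with a spread shared by all 14 arrays (adjusted p = 0.12). Here and below those 14 arrays include the 3 of low 5′ signal, replicate 1 of 8 h and replicates 1 and 2 of 60 h. SUC2, secreted invertase, was 5117 and 6324 at 30 h and 5485, 5465 and 5067 at 80 h, with overlapping arrays (log2 change -0.09 ± 0.13, adjusted p = 0.57), and its change was -0.25 without replicate 1 of 30 h. Without replicate 2 it was 0.06. In the deposited scaling 3 were higher and 3 lower.

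Regulators of glucose repression changed in both directions, 4 higher and 8 lower of 24, a share of 50.0% near the 45.4% of all genes. NRG1, a repressor of glucose-repressed genes and of filamentous growth, was 399 and 275 at 30 h and 1682, 1606 and 1812 at 80 h (log2 change 2.36 ± 0.16, adjusted p = 8.3e-05). NRG2 was 330.1 and 135 at 30 h and 826, 763 and 703 at 80 h (log2 change 1.85 ± 0.31, adjusted p = 0.0022), or 1.21 without replicate 2 and 2.50 without replicate 1 of 30 h. MIG2, a glucose repressor, fell from 146 and 319 to 84.4, 63.8 and 41.8 (log2 change -1.83 ± 0.37, adjusted p = 0.0048). ERT1, an activator of gluconeogenic and 2-carbon genes, rose from 517 and 365 to 840.5, 849 and 839.5 (log2 change 0.96 ± 0.15, adjusted p = 0.0018). The falls in this group were 3 on the authors' scale.

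Most genes of gluconeogenesis, the glyoxylate cycle and 2-carbon use rose. Of 24 tested 16 were higher against 23.4% of all probe sets, 1 was lower, and the median change was 0.75. Beside FBP1, PCK1, phosphoenolpyruvate carboxykinase, was 151 and 121 at 30 h and 401, 412 and 409 at 80 h (log2 change 1.59 ± 0.13, adjusted p = 2.0e-04). ADY2, the acetate permease, was 1319 and 633 at 30 h and 3592, 3574 and 3966 at 80 h (log2 change 2.02 ± 0.26, adjusted p = 8.4e-04). IDP2, the cytosolic NADP-dependent isocitrate dehydrogenase, was 706 and 598 at 30 h and 2233, 2377 and 2578 at 80 h (log2 change 1.88 ± 0.12, adjusted p = 7.4e-05). Each of these had all 80 h arrays above both of 30 h. ICL1, isocitrate lyase, rose by 0.92 ± 0.20 from 81.2 and 114. ACS1, acetyl-CoA synthetase of respiring cells, and ADH2, the ethanol-oxidising alcohol dehydrogenase, rose by 1.23 ± 0.25 and 1.11 ± 0.22, with 80 h signals of 2228 to 2401 and 1353 to 1535. Without replicate 2 of 30 h these were 0.72 and 0.69. MLS1, malate synthase, rose by 0.75 ± 0.24 (adjusted p = 0.032), or by 0.28 without replicate 2 of 30 h. This call ended without any 1 of the 80 h arrays and with centred arrays (adjusted p = 0.074). ALD3, a stress-induced cytosolic aldehyde dehydrogenase, was the member that fell, from 1348 and 838 to 356, 331 and 436 (log2 change -1.52 ± 0.21, adjusted p = 0.001). With both 30 h arrays kept, the number of rises was between 12 and 18 in every alternative at the same threshold, and 11 at an adjusted p under 0.01.

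**Figure D2:**
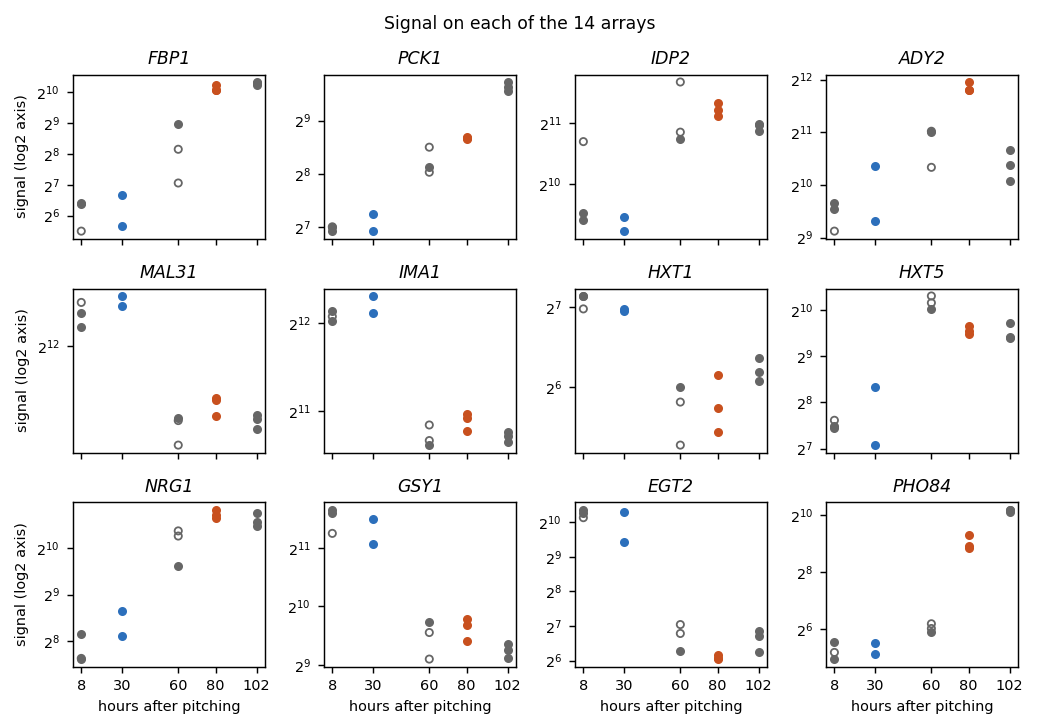
Signal of 12 genes on each of the 14 arrays against hours after pitching, on log2 axes, with 30 h in blue, 80 h in red, other times in grey and open circles for the 3 arrays of low 5′ signal. FBP1 climbs to 493 on the intact 60 h array and 1066 to 1184 at 80 h, whereas PHO84 is 59.3 on that 60 h array and 456 to 631 at 80 h.

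The levels at other times place these changes within the fermentation as a description. On the 60 h array with ordinary 5′ signal, FBP1 was 493, IDP2 1704 and PCK1 281, all between the 30 h and the 80 h arrays. EGT2 at 78.2, DSE2 at 63.9 and IMA1 at 1561 were at or near their 80 h levels there, and so were NCA3 at 5588 and INO1 at 3294. PHO84 was 59.3 at 60 h and had a mean of 1133 at 102 h, and NRG1 was 785 at 60 h, so on this 1 array both were still well below their 80 h levels. PCK1 had a mean of 797 at 102 h, above 80 h, while ADY2 with 1327 and MAL31 with 2574 did not exceed it.

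Glycolysis and ethanol formation had 4 of 28 genes higher and 6 lower, a smaller share than the 45.6% of all probe sets, and a median of -0.11. The abundant isozymes CDC19, pyruvate kinase, PDC1, pyruvate decarboxylase, ADH1, alcohol dehydrogenase, and TDH3, the dehydrogenase of glyceraldehyde 3-phosphate, had changes of -0.11 ± 0.10, -0.21 ± 0.11, 0.10 ± 0.11 and -0.11 ± 0.11, none past the test. Without replicate 1 of 30 h PDC1 changed by -0.24. Signals this high are near the top of the array, where a change is compressed. ENO2, the enolase induced by glucose, was 9213 and 11082 at 30 h and 6057, 6173 and 5307 at 80 h (log2 change -0.79 ± 0.13, adjusted p = 0.002, or 0.05 with a spread shared by all 14 arrays), while its near-identical partner ENO1 changed by -0.17 ± 0.11. PDC6, a minor pyruvate decarboxylase, was 526 and 329 at 30 h and 863, 812 and 806 at 80 h (log2 change 0.99 ± 0.18, adjusted p = 0.0035), and 0.65 without replicate 2 of 30 h. The glucose kinases HXK1 and GLK1 changed by -0.11 ± 0.10 and 0.07 ± 0.11, and HXK2, the kinase that takes part in repression, was 1023 and 2822 at 30 h and 1192, 1135 and 1011 at 80 h, with replicate 1 of 30 h among the 80 h arrays (log2 change -0.61 ± 0.35, adjusted p = 0.18). Without that replicate the change of HXK2 was -1.35, and without replicate 2 it was 0.12. Without replicate 2 or 3 of 80 h 2 of this group were higher, and 4 and 3 lower. There were 5 higher and 2 lower on the authors' scale.

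Genes of the side branches of glycolysis fell more often than they rose. In the pentose phosphate pathway, which makes NADPH and ribose, 9 of 16 genes fell, 3 rose (5 on the authors' scale), and the median was -0.56. SOL4, a 6-phosphogluconolactonase, was 974 and 906 at 30 h and 388, 333 and 344 at 80 h (log2 change -1.41 ± 0.12, adjusted p = 2.1e-04). SOL1 of the same family fell by 1.35 ± 0.17. RKI1, ribose 5-phosphate ketol-isomerase, went the other way with 387 and 426 at 30 h and 1129, 1166 and 1099.8 at 80 h (log2 change 1.48 ± 0.11, adjusted p = 1.3e-04). The arrays of both times were separate in these 3 genes. Glycerol genes had 6 of 11 lower and 1 higher, with a median of -0.62. GPD2, the glycerol 3-phosphate dehydrogenase induced without oxygen, was 323 and 327 at 30 h and 152, 130.2 and 108 at 80 h (log2 change -1.34 ± 0.16, adjusted p = 7.5e-04), GPD1, its osmotic counterpart, fell by 0.71 ± 0.11, and the dihydroxyacetone kinase gene DAK1 by 0.73 ± 0.12. GUT1, glycerol kinase, which brings glycerol back into metabolism, rose by 1.29 ± 0.20 to 3099 to 3179. The calls of GPD1 and GUT1 ended with a spread shared by all 14 arrays (adjusted p = 0.11 and 0.094), and GPD2 fell by 0.87 on the authors' scale. In trehalose and glycogen metabolism 9 of 23 fell and 4 rose. GSY1, glycogen synthase, was 2158 and 2872 at 30 h and 824, 885 and 683 at 80 h (log2 change -1.65 ± 0.16, adjusted p = 3.6e-04), with no overlap, while GSY2, the main glycogen synthase of late growth, was 2727 and 2719.9 at 30 h and 2983, 2829 and 2709 at 80 h (log2 change 0.06 ± 0.11, adjusted p = 0.67). TPS3, a regulatory subunit of trehalose synthase, fell by 1.44 ± 0.16 on the log2 scale. GDB1, the glycogen debranching enzyme, fell by 1.85 ± 0.28 and PGM1, a phosphoglucomutase, by 1.35 ± 0.20. GAC1, a phosphatase subunit that activates glycogen synthase, rose by 1.19 ± 0.17. TPS1, the catalytic trehalose 6-phosphate synthase, did not pass at -0.11 ± 0.11, except with centred arrays at -0.51 (adjusted p = 0.018). Rises in trehalose and glycogen were 2 without replicate 2 or 3 of 80 h.

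**Figure D3:**
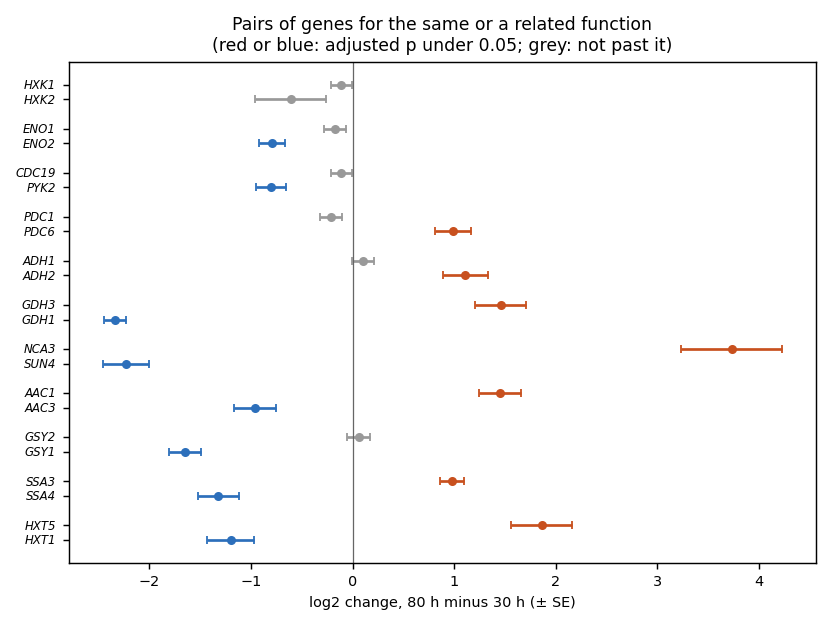
Log2 change between 30 h and 80 h with its standard error for 11 pairs of genes of the same or a related function, red where higher and blue where lower at adjusted p under 0.05 and grey otherwise. GDH3 and GDH1, NCA3 and SUN4, AAC1 and AAC3, and SSA3 and SSA4 lie on opposite sides of 0, while HXK1 and HXK2 are both grey.

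Mitochondrial genes did not move as a block. For the tricarboxylic acid cycle 2 of 20 genes were higher and 7 lower (45.0% against 45.4% of all genes). IDP1, the mitochondrial NADP-dependent isocitrate dehydrogenase, was 351 and 397 at 30 h and 1032, 974 and 928 at 80 h (log2 change 1.39 ± 0.12, adjusted p = 2.0e-04), all 80 h arrays being higher. FUM1, fumarase, was 2162 and 2212 at 30 h and 1272, 1323 and 1478 at 80 h (log2 change -0.69 ± 0.11, adjusted p = 0.002), all lower, and IDH2, a subunit of the NAD-dependent isocitrate dehydrogenase, fell by 0.62 ± 0.15. The median was -0.15, or 0.02 without replicate 1 and -0.30 without replicate 2 of 30 h. Without replicate 2 of 80 h the falls were 3, without replicate 1 of 80 h 4. Deposited values gave 4 higher and 3 lower. In the respiratory chain and ATP synthase 18 of 40 were higher and 3 lower (52.5% against 45.4% of all genes). Their median was 0.27 (0.43 and 0.11 without replicates 1 and 2 of 30 h). INH1, the inhibitor of reverse ATP hydrolysis by the synthase, was 1401 and 1028 at 30 h and 3421, 3138 and 3675 at 80 h (log2 change 1.50 ± 0.15, adjusted p = 3.8e-04). ATP17, a synthase subunit, rose by 0.99 ± 0.13. COX9, a cytochrome oxidase subunit, rose by 0.92 ± 0.13. COR1, a core subunit of complex III, was 2976 and 2587 at 30 h and 1481, 1469 and 1627 at 80 h (log2 change -0.86 ± 0.12, adjusted p = 9.8e-04). With arrays centred on their S. cerevisiae median the respiratory count was 3 higher and 5 lower with a median of -0.02, so its direction depends on the scaling. The ADP/ATP carrier AAC1 rose by 1.45 ± 0.21. AAC3, the carrier of cells without oxygen, was 118 and 179 at 30 h and 79.7, 81.9 and 64.2 at 80 h (log2 change -0.96 ± 0.21, adjusted p = 0.0076), a call that ended on the authors' scale (-0.52, adjusted p = 0.071).

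Genes that respond to oxygen, heme and sterols changed in both directions. In the group for sterol uptake and oxygen or heme regulation 10 of 23 rose and 5 fell (3 without replicate 2 of 80 h, and 2 on the authors' scale). UPC2, the sterol sensor that activates sterol genes when sterol is short, was 185 and 129 at 30 h and 398, 428 and 370.2 at 80 h (log2 change 1.37 ± 0.17, adjusted p = 7.7e-04). PDR11, a transporter for sterol uptake without oxygen, was 184 and 126 at 30 h and 471, 445 and 475 at 80 h (log2 change 1.61 ± 0.17, adjusted p = 4.0e-04). Both had all 80 h arrays above 30 h, and PDR11 had a mean of 926 at 102 h. SUT2, a regulator of sterol uptake, fell from 133 and 184 to 58.2, 51.5 and 57.4 (log2 change -1.49 ± 0.19, adjusted p = 8.1e-04). Of 27 sterol synthesis genes 10 rose and 1 fell (40.7% against 45.4% of all genes). ERG4, the last enzyme of the pathway, rose from 873 and 680.4 to 1345, 1269 and 1113 (log2 change 0.68 ± 0.14, adjusted p = 0.0058). The oxygen-using step encoded by ERG11 was 9367 to 9899 at 80 h (log2 change 0.12 ± 0.10, adjusted p = 0.36). With centred arrays the sterol synthesis count was 3 higher and 4 lower and the median -0.17 in place of 0.26, and without replicate 2 of 80 h 6 were higher. HEM13, coproporphyrinogen oxidase, which rises when oxygen is lacking, was 524 and 757 at 30 h and 744, 628 and 539 at 80 h (log2 change 0.00 ± 0.19, adjusted p = 0.99). Of 17 anaerobic wall mannoproteins, whose genes are used without oxygen, 10 rose and 1 fell, with a median of 0.56. PAU5 was 391 and 259 at 30 h and 742, 575 and 552 at 80 h (log2 change 0.96 ± 0.20, adjusted p = 0.0055). TIR4 was 3062 and 2564 at 30 h and 5609, 5519.5 and 5199 at 80 h (log2 change 0.96 ± 0.12, adjusted p = 7.7e-04), or 0.54 with centred arrays. PAU genes are so alike that single assignments are uncertain, and without replicate 1 or 2 of 80 h 6 of the group rose.

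Lipid and aroma genes passed at shares of 53.8% and 45.0%, against 45.4% of all genes, and went both ways. Fatty acid and phospholipid synthesis had 10 of 39 higher and 11 lower, with INO1 above as its largest rise. Of 20 genes for aroma esters and the Ehrlich pathway, by which amino acids become fusel alcohols, 4 were higher and 5 lower. EEB1, an acyltransferase that makes ethyl esters of fatty acids, was 1219 and 1063 at 30 h and 2088, 2152 and 2486 at 80 h (log2 change 0.97 ± 0.13, adjusted p = 8.5e-04), with no overlap. ATF1, the main acetate ester synthase, was 416 and 445 at 30 h and 423, 495 and 403 at 80 h (log2 change 0.03 ± 0.13, adjusted p = 0.88), and its arrays overlapped. GRE2, a reductase of isovaleraldehyde and methylglyoxal, fell from 1279.9 and 938 to 601, 591 and 608 (log2 change -0.87 ± 0.14, adjusted p = 0.0021). In the lipid group the rises were 4 and 5 without replicates 2 and 3 of 80 h and 5 with centred arrays, and the falls 4 on the authors' scale. In the aroma group 7 rose and 2 fell on the authors' scale.

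Genes that build ribosomes and genes for ribosomal proteins moved apart. Of 118 tested genes of ribosome assembly and the small subunit processome 82 rose and 2 fell, with a median change of 0.64. RRS1, needed for assembly of the large subunit, was 81.1 and 62.7 at 30 h and 301, 290.0 and 256 at 80 h (log2 change 1.98 ± 0.16, adjusted p = 1.7e-04). TIF6, a factor that keeps the subunits apart during assembly, was 360.1 and 284 at 30 h and 1085, 1110.5 and 1024 at 80 h (log2 change 1.75 ± 0.13, adjusted p = 1.3e-04). NOP10, a core protein of pseudouridylation particles, was 1051 and 1023 at 30 h and 2833, 3202 and 3307 at 80 h (log2 change 1.58 ± 0.11, adjusted p = 1.1e-04). The GTPase gene NOG1 rose by 1.49 ± 0.14 and the helicase gene RRP3 by 1.52 ± 0.20. In each of these 5 genes every 80 h array was above both 30 h arrays. Between 63 and 102 of the group rose in every alternative with both 30 h arrays. RNA polymerases I and III, which transcribe ribosomal and transfer RNA, had 12 of 36 higher and 1 lower (36.1% against 45.4% of all genes). Among the rises were RPA49 with 76.6 and 115 at 30 h and 243, 245 and 233 at 80 h (log2 change 1.35 ± 0.18, adjusted p = 9.5e-04), RPA12 with a rise of 1.38 ± 0.17 and RPC25 with one of 1.11 ± 0.14. Rises of the polymerase group numbered 23 on the authors' scale.

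Of 128 cytosolic ribosomal protein genes 64 fell and 0 rose, with a median of -0.41, and at an unadjusted p under 0.05 76 were lower and 1 higher. RPS7B was 909 and 1979 at 30 h and 435, 403 and 371 at 80 h (log2 change -1.74 ± 0.28, adjusted p = 0.0018). RPP0, the stalk protein, was 3146 and 5127 at 30 h and 1595, 1561 and 1525 at 80 h (log2 change -1.36 ± 0.19, adjusted p = 0.001), in both with replicate 2 of 30 h far above replicate 1. This gap ran through the group. The median was -0.69 without replicate 1 of 30 h and -0.19 without replicate 2. Without replicate 3 of 80 h 34 fell, and with centred arrays 98. Most ribosomal proteins come from pairs of near-identical genes, so the signal of a single gene is uncertain. Mitochondrial ribosomal proteins had 22 of 67 lower and 4 higher (38.8% against 45.4% of all genes). Of these proteins 14 were lower without replicate 2 of 80 h and 4 lower on the authors' scale. For tRNA synthetases and translation factors 19 of 54 fell and 7 rose (48.1%). The falls were 12 without replicate 1 of 80 h and 8 on the authors' scale. The median of the synthetase group was -0.20, or -0.40 without replicate 1 and -0.11 without replicate 2 of 30 h. The rises in this group were 4 without replicate 2 of 80 h. TYS1, the tyrosyl-tRNA synthetase, was 609 and 848 at 30 h and 278, 266 and 259 at 80 h (log2 change -1.43 ± 0.15, adjusted p = 4.6e-04), ARC1, a cofactor of synthetases, fell by 1.02 ± 0.16, and DED1, the RNA helicase of translation initiation, rose the most of the group with 56.5 and 59.0 at 30 h and 333, 227 and 207 at 80 h (log2 change 2.11 ± 0.21, adjusted p = 3.6e-04).

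**Figure D4:**
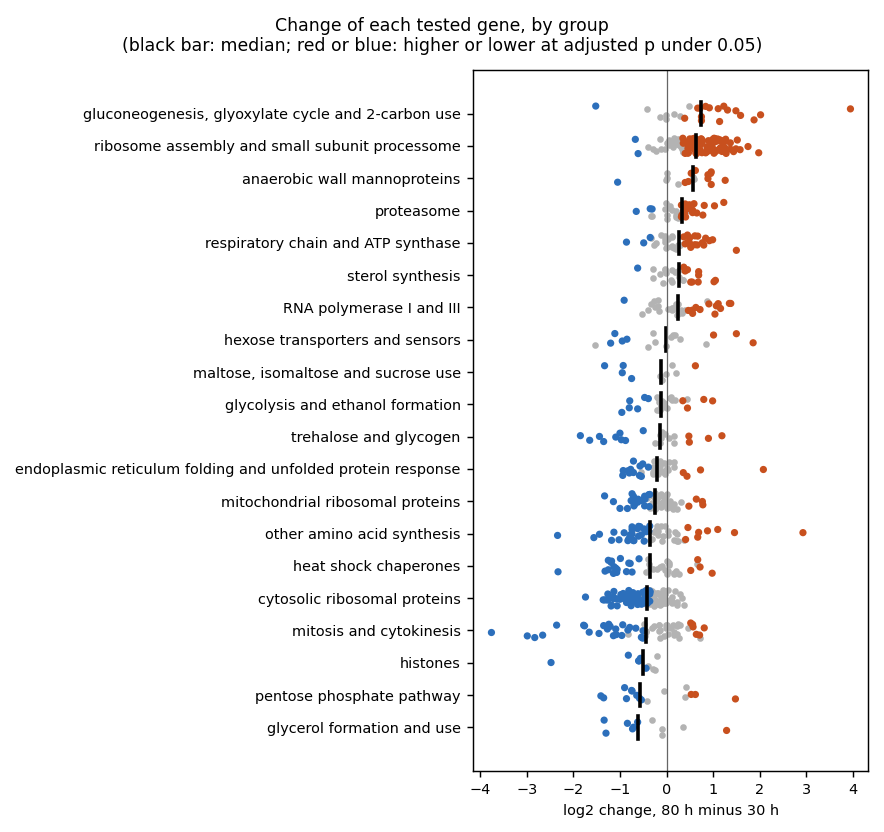
Log2 change of each tested member of 20 gene groups, ordered by their medians (black bars), with red for members higher and blue for members lower at adjusted p under 0.05 and grey for the rest. Gluconeogenesis and 2-carbon use has a median of 0.75 and ribosome assembly one of 0.64, while glycerol genes have one of -0.62 and ribosomal proteins one of -0.41.

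Mitosis and cytokinesis genes, to which the separation genes above belong, had 24 of 59 lower and 6 higher (50.8% against 45.4% of all genes). Their median was -0.44. AMN1, a protein of daughter cells that helps switch off mitotic exit, was 314 and 466 at 30 h and 130.0, 132 and 158 at 80 h (log2 change -1.45 ± 0.19, adjusted p = 8.4e-04). The median of the mitotic group was -0.02 on the authors' scale and -0.10 without replicate 2 of 30 h, and 3 rose without replicate 1 or 2 of 80 h. In the deposited scaling 14 of the group were higher and 19 lower. CLB2, the main mitotic cyclin, was 36.0 and 89.8 at 30 h and 43.5, 36.5 and 46.6 at 80 h, with overlapping arrays (log2 change -0.44 ± 0.36, adjusted p = 0.35, or -1.10 without replicate 1 of 30 h and 0.22 without replicate 2). Genes of G1/S control and DNA replication were split, 12 higher and 19 lower of 74 (41.9% against 45.4% of all genes). SWI4, the DNA-binding part of the G1/S factor SBF, was below background on both 30 h arrays and is at least 3.83-fold higher at 80 h. It was 17.9 and 21.3 at 30 h and 92.9, 72.3 and 90.3 at 80 h (adjusted p = 4.4e-04 for the log2 change of 2.12 ± 0.22). HCM1, an S-phase transcription factor, was likewise at least 2.42-fold higher (adjusted p = 0.0021 for the log2 change of 1.89 ± 0.31). CDC21, thymidylate synthase, was 187 and 292 at 30 h and 74.7, 82.7 and 102 at 80 h (log2 change -1.44 ± 0.22, adjusted p = 0.0016), TOS4, a G1/S target, fell by 1.19 ± 0.26, and CLN2, a G1 cyclin, was 145 and 280.4 at 30 h and 98.5, 76.6 and 61.8 at 80 h (log2 change -1.38 ± 0.29, adjusted p = 0.006). The change of CLN2 was -0.91 without replicate 2 of 30 h. This group had 24 genes higher and 6 lower on the authors' scale, and 7 higher without replicate 2 or 3 of 80 h. FAR1, an inhibitor of G1 cyclin kinases, was 43.8 and 39.0 at 30 h and 114, 114 and 123 at 80 h (log2 change 1.50 ± 0.17, adjusted p = 5.1e-04), with no overlap.

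Of 10 histone genes 6 fell and 0 rose, with a median of -0.5, and 7 were lower at an unadjusted p under 0.05. HTB2 was 676 and 1766 at 30 h and 221, 201 and 171 at 80 h (log2 change -2.48 ± 0.34, adjusted p = 0.001) and HTB1 3844 and 5142 at 30 h and 2422, 2583 and 2569 at 80 h (log2 change -0.82 ± 0.14, adjusted p = 0.0023), both separate between the times, although near-identical histone pairs can share signal. HTB2 changed by -3.17 without replicate 1 of 30 h and -1.78 without replicate 2. The group median was -0.69 without replicate 1 of 30 h and -0.26 without replicate 2. Ras, cAMP and protein kinase A genes had 10 of 23 higher and 4 lower. RAS2, the GTPase that signals nutrients to adenylate cyclase, was 1394 and 1611 at 30 h and 546, 549 and 516 at 80 h (log2 change -1.48 ± 0.12, adjusted p = 1.4e-04). SRV2, a cyclase-associated protein, fell by 1.03 ± 0.15. MSN4, a stress transcription factor that this pathway restrains, was 461 and 386 at 30 h and 942, 953 and 866 at 80 h (log2 change 1.12 ± 0.12, adjusted p = 5.0e-04), all 80 h arrays being higher. Without replicate 1 or 2 of 80 h 6 of the Ras group were higher.

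Heat shock chaperones were lower in 17 of 41 cases and higher in 4 (51.2% against 45.4% of all genes), with a median of -0.36. This median was -0.63 without replicate 1 of 30 h, -0.11 without replicate 2 and -0.03 on the authors' scale, where 7 were higher and 16 lower. HSC82, the constitutive Hsp90, was 2878 and 4175 at 30 h and 1466, 1521 and 1565 at 80 h (log2 change -1.19 ± 0.16, adjusted p = 9.3e-04). CPR6, an Hsp90 co-chaperone, was 511 and 887 at 30 h and 261, 301 and 285 at 80 h (log2 change -1.25 ± 0.21, adjusted p = 0.0023). Both were higher on the intact 60 h array, at 4503 and 1731, than on any array of 30 h or 80 h. SSA3, an Hsp70 gene of late growth, rose instead, with 1094 and 884 at 30 h and 1917, 1932 and 1964 at 80 h (log2 change 0.98 ± 0.12, adjusted p = 7.7e-04). SSA4, the heat-inducible one, was 329.7 and 542 at 30 h and 161, 167 and 179.6 at 80 h (log2 change -1.32 ± 0.20, adjusted p = 0.0015, or -0.87 on the authors' scale). HSP26 was 7607 and 3454 at 30 h and 7512, 8510.4 and 8180.0 at 80 h, with overlapping arrays (log2 change 0.65 ± 0.28, adjusted p = 0.085). Its change was 1.22 without replicate 1 of 30 h and 0.08 without replicate 2. It passed on the authors' scale at 0.66, although its 30 h arrays are far apart. HSP12 was at the top of the array, where changes cannot be resolved (log2 change -0.11 ± 0.11, adjusted p = 0.41). Of 43 genes that Msn2 and Msn4 activate, 11 rose and 13 fell, with 7 rises without any 1 of the 80 h arrays. Oxidative stress genes had 9 of 29 higher and 7 lower, 4 higher without any 1 of the 80 h arrays, 3 higher and 11 lower with centred arrays and 3 lower on the authors' scale. Among the rises was YAP1, the regulator of the response, which was 877 and 643 at 30 h and 1563, 1398 and 1496 at 80 h (log2 change 0.98 ± 0.15, adjusted p = 0.0015).

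HAC1, the regulator of the unfolded protein response, was 198 and 214 at 30 h and 1056, 752 and 840.5 at 80 h (log2 change 2.08 ± 0.16, adjusted p = 1.3e-04), although its activity depends on mRNA splicing, which these probes do not report here. Of 37 genes of folding in the endoplasmic reticulum 13 fell and 4 rose (45.9% against 45.4% of all genes), or 2 rose without any 1 of the 80 h arrays. KAR2, the Hsp70 of that compartment, was 2122 and 2857 at 30 h and 1406, 1382 and 1366 at 80 h (log2 change -0.83 ± 0.14, adjusted p = 0.0022), with no overlap in either gene. With a spread shared by all 14 arrays the call of HAC1 ended (adjusted p = 0.35). On the arrays of low 5′ signal among them HAC1 was 6.31 at 8 h, and 9.32 and 26.0 at 60 h. In the folding group 6 rose and 3 fell on the authors' scale. Proteasome genes had 20 of 38 higher and 3 lower, with a median of 0.34. RPN13, a ubiquitin receptor of the proteasome, was 905 and 804 at 30 h and 1327, 1587 and 1586 at 80 h (log2 change 0.81 ± 0.13, adjusted p = 0.0018). UBI4, the stress polyubiquitin gene, was 2531 and 2047 at 30 h and 5545, 5545 and 4928 at 80 h (log2 change 1.23 ± 0.13, adjusted p = 4.4e-04). With centred arrays 6 rose and 5 fell with a median of 0.07, and the rises were 11, 8 and 9 without replicates 1, 2 and 3 of 80 h. Autophagy and vacuolar protease genes had 9 of 40 higher and 6 lower (37.5% against 45.4% of all genes), with 19 rises and 1 fall on the authors' scale. ATG1, the kinase that starts autophagy, was 402 and 318 at 30 h and 970.5, 882 and 1059 at 80 h (log2 change 1.44 ± 0.14, adjusted p = 3.6e-04). ATG22, a vacuolar exporter of amino acids, was 241 and 198 at 30 h and 643, 637 and 597 at 80 h (log2 change 1.52 ± 0.13, adjusted p = 2.0e-04).

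Single genes of nitrogen metabolism changed strongly in both directions. GDH1 was 3219 and 3048 at 30 h and 629.9, 630.4 and 594 at 80 h (log2 change -2.34 ± 0.11, adjusted p = 5.3e-05). GDH3, the isozyme of cells on non-fermentable carbon, was 354 and 174 at 30 h and 663, 688 and 704 at 80 h (log2 change 1.46 ± 0.25, adjusted p = 0.0025), so the pair moved in opposite directions. GDH3 rose by 0.95 without replicate 2 of 30 h, and its call ended with a spread shared by all 14 arrays (adjusted p = 0.065). Of 54 genes of other amino acid synthesis 26 fell and 8 rose, with a median of -0.36, 10 falls and 13 rises on the authors' scale and 5 rises without replicate 1 of 80 h. PRO3, the last step to proline, was 406 and 516 at 30 h and 162, 165 and 179.7 at 80 h (log2 change -1.44 ± 0.14, adjusted p = 3.6e-04). In arginine and lysine synthesis 10 of 18 fell and 6 rose, 5 falling without replicate 3 of 80 h and 4 on the authors' scale. LYS9, saccharopine dehydrogenase, was 1116 and 1957 at 30 h and 293, 358 and 355 at 80 h (log2 change -2.14 ± 0.22, adjusted p = 4.0e-04). LYS12, homoisocitrate dehydrogenase, fell by 1.14 ± 0.17. CPA1, of the carbamoyl phosphate synthetase for arginine, was 2028 and 1376 at 30 h and 3989, 4412 and 3513 at 80 h (log2 change 1.24 ± 0.18, adjusted p = 0.0012). ARG80, a regulator of arginine genes, rose by 1.72 ± 0.17. Arrays of both times were separate in each of these genes.

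Permeases and genes under nitrogen catabolite repression had 10 of 49 higher and 15 lower (51.0% against 45.4% of all genes). AGP1, a broad amino acid permease, was 1432 and 1112 at 30 h and 265, 289.7 and 274 at 80 h (log2 change -2.19 ± 0.14, adjusted p = 7.0e-05). BAP2, a permease for branched-chain amino acids, was 148 and 105 at 30 h and 560.3, 512 and 507 at 80 h (log2 change 2.08 ± 0.16, adjusted p = 1.4e-04), again with all arrays separate and in opposite directions. MEP3, an ammonium permease, fell from 609 and 417 to 171, 176 and 179 (log2 change -1.52 ± 0.17, adjusted p = 5.0e-04). ALP1, a permease for basic amino acids, rose from 294 and 202 to 659, 739 and 731 (log2 change 1.54 ± 0.17, adjusted p = 4.6e-04). DAL3 was 154 and 129 at 30 h and 27.2, 28.6 and 33.4 at 80 h (log2 change -2.25 ± 0.20, adjusted p = 2.6e-04). In sulphur assimilation 9 of 34 rose and 11 fell, among them MET3, ATP sulphurylase, with 218 and 422 at 30 h and 79.1, 79.7 and 83.3 at 80 h (log2 change -1.91 ± 0.25, adjusted p = 8.8e-04). SAM1, an S-adenosylmethionine synthetase, fell by 1.39 ± 0.20, whereas STR3, a cystathionine beta-lyase, rose by 1.57 ± 0.24. On the authors' scale 14 rose and 6 fell there, and 17 rose and 11 fell in the nitrogen group. Purine and one-carbon synthesis had 9 rises and 9 falls of 36 (50.0% against 45.4% of all genes), and 14 falls with centred arrays. ADE2, of adenine synthesis, was 3927 and 4002 at 30 h and 1568, 1735 and 2254 at 80 h (log2 change -1.12 ± 0.16, adjusted p = 0.0012).

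Phosphate genes had 8 of 24 higher and 4 lower (50.0% against 45.4% of all genes), the falls being 2 without replicate 2 of 80 h. Next to PHO84, the sodium-phosphate cotransporter PHO89 was 68.4 and 53.5 at 30 h and 146, 135 and 139 at 80 h (log2 change 1.21 ± 0.17, adjusted p = 0.001). PHO8, the vacuolar alkaline phosphatase, rose by 0.99 ± 0.13. PHO80, the cyclin that holds the phosphate pathway off, also rose, with 557 and 436 at 30 h and 1009, 1013 and 901 at 80 h (log2 change 0.98 ± 0.14, adjusted p = 0.0011), as did the low-affinity transporter PHO90 by 0.89 ± 0.13. All of these had separate arrays. Zinc and iron genes had 8 of 33 higher and 3 lower (33.3% against 45.4% of all genes), or 21 higher on the authors' scale. The membrane proteins IZH2, IZH3 and IZH4 of zinc homeostasis rose by 1.34 ± 0.12, 1.66 ± 0.11 and 1.13 ± 0.14, IZH3 from 214 and 207 to between 636 and 688. ZRT1, the high-affinity zinc transporter, was 6342 and 5369 at 30 h and 6809, 6567 and 6293 at 80 h (log2 change 0.17 ± 0.12, adjusted p = 0.27), or 0.29 without replicate 1 of 30 h and 0.05 without replicate 2. Thiamine and vitamin B6 genes had 6 of 21 higher and 1 lower (33.3% against 45.4% of all genes). The rises were 2 without replicate 2 or 3 of 80 h and 15 on the authors' scale. The largest was THI73, a carboxylate transporter under thiamine control, which was 162 and 98.7 at 30 h and 465, 513 and 491 at 80 h (log2 change 1.95 ± 0.20, adjusted p = 3.8e-04).

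Cell wall genes had 22 of 55 higher and 9 lower. RHO1, the GTPase that drives wall synthesis, was 1200.0 and 1389 at 30 h and 517, 403 and 222 at 80 h (log2 change -1.85 ± 0.30, adjusted p = 0.002). WSC2, a wall stress sensor, was 353 and 489 at 30 h and 130.3, 111 and 123 at 80 h (log2 change -1.78 ± 0.17, adjusted p = 2.8e-04), both with all 80 h arrays lower, RHO1 having a mean of 1321 at 102 h. FLO11, the flocculin of surface growth, was 270.0 and 145 at 30 h and 659.6, 735 and 623 at 80 h (log2 change 1.76 ± 0.23, adjusted p = 9.3e-04), with no overlap.

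Markers of other cell states were measured beside these results. Summed over 7 a-specific genes, signals were 428 and 330.4 at 30 h and 559, 570.0 and 538 at 80 h, with 1 of 6 tested members higher and 1 lower. The member that rose was MFA1, an a-factor gene, which was 42.2 and 16.4 at 30 h and 174, 226 and 204 at 80 h (log2 change 2.93 ± 0.35, adjusted p = 6.9e-04), with 1 of its 30 h arrays below background and a change of 2.25 against the other. Over 4 alpha-specific genes the sums were 211 and 187 against 198, 254 and 247, with MF(ALPHA)1 below background on all 5 arrays and 1 of 2 tested members in each direction. Over 15 haploid-specific genes the sums were 1636 and 1523 against 1649, 1682 and 1617, with STE18 below background and 2 of 13 in each direction. Over 41 genes of meiosis and sporulation they were 3097 and 2308 against 3289.8, 3346 and 3349.8, with SPO19 and SPO77 below background. Of 35 tested there 9 were higher and 2 lower (31.4% against 45.4% of all genes). The rises of the last group were 3 and 4 without replicates 2 and 3 of 80 h and 15 on the authors' scale. The part of these in the other changes was not tested. Lager yeasts carry a second parental genome besides that of S. cerevisiae, and how far its transcripts reach these probe sets was not measured.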

How the data were processed

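RNA from 14 samples was hybridised to Affymetrix Yeast Genome 2.0 arrays. The values are signal intensities per probe set on a linear scale, deposited by the authors in 1 table, with GCOS 5.0 named per the submitters' processing notes. No source used here names the target of the scaling. No sample column was left unmapped. Groups come from the times in the sample titles.

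Of 10928 probe sets, 5498 belonged to 5449 S. cerevisiae genes by the platform annotation, with symbols updated through a gene table of assembly R64. Because array medians spanned 0.777 on the log2 scale, over a tolerance of 0.2, values of all 14 arrays were quantile normalized. The 95th percentile of the dimmer part of all probe sets (22.1) served as background and its median (5.58) as the floor before taking log2. Probe sets above background on at least 2 arrays of either time were tested, 5306 in all, 110 of them marked as shared between transcripts.

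A linear model of the 5 arrays was fitted with limma 3.58.1 in R 4.3.3, with an intensity trend and Benjamini-Hochberg adjusted p under 0.05 over all tested probe sets, with 3 residual and 5.37 prior degrees of freedom. Intensities hold no read depth, and the number of arrays limits the precision. For 39 genes with more than 1 tested probe set the brightest was used, and the sets of 1 of them were called in opposite directions. A fold given as "at least" sets the measured time against the higher of background and signal of the other. The adjusted p beside it tests the log2 change in the fit and not that fold.

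Named genes are the 12 largest rises and 12 largest falls with arrays that do not overlap, above background at the higher time, not shared and with a standard name; up to 5 members past the test with the largest changes in each list; a fixed set of carbon, stress and oxygen genes; and pairs of isoforms. Members of 46 gene lists and these rules were chosen with earlier results of these data known. On simulated data with 5306 probe sets, 98.5% of 66 changes of 2, 76.1% of 67 changes of 1 and 10.4% of 67 changes of 0.5 on the log2 scale were recovered, and 4.65% of 129 calls were false. Far fewer probe sets were changed there than were called in the data. The simulated noise was independent and of the same spread at both times, so these rates need not hold for this comparison. The alternatives varied scaling, floor, filter, trend, threshold, arrays in the fit, shared probe sets, replicate block and each array left out. Same-numbered samples deviated together at correlations of 0.017 and 0.118, so the numbers were not taken to pair samples. No sequences of probes or promoters were used here.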

Additional observations from a re-analysis of the deposited data

How the results depend on the processing

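No probe set was called in opposite directions in any alternative with both 30 h arrays. The counts moved with scaling and with the arrays in the fit. On the authors' scale as deposited the probe sets higher and lower at 80 h than at 30 h numbered 2113 and 460 in place of 1241 and 1176, and 762 and 109 in place of 333 and 249 at 2-fold or more. This scale raises the median change of all probe sets to 0.35, and centring arrays on their S. cerevisiae median lowers it to -0.10, where 384 were lower by at least 2-fold. Calls on the authors' scale can also differ through the spread used by the fit, as said above for HXT4. At an adjusted p under 0.01 there were 752 rises and 716 falls. Leaving out each array in turn gave 829 to 1452 rises and 826 to 1353 falls, and at 2-fold or more 300 to 452 rises and 177 to 377 falls, the highest of each without 30 h replicate 1. The fewest calls came without 80 h replicate 2, and the fewest at 2-fold or more without 30 h replicate 2. With the replicate number as a block 1037 rises and 1001 falls were called, of which 996 and 959 were shared with the fit without it. With all 14 arrays in the fit 828 rose and 809 fell. Without the 3 of low 5′ signal, 11 arrays in the fit gave 1459 rises and 1383 falls. Other alternatives with both 30 h arrays stayed within 1.5 times of the counts. Of 141 named genes that passed and were followed, at least 127 kept their call in every alternative with both 30 h arrays. The cause of the lost calls was not tested.

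The limits are those of 5 arrays from 1 vessel. The 2 arrays at 30 h differ as widely as described, and a missed test does not show that a gene was level. In a simulation with far fewer changed probe sets than were called here, changes of 0.5 on the log2 scale were rarely recovered. Signals near the top of the scale, as for HSP12 and glycolytic enzymes, are compressed, and those below 22.1 are background. Probe sets of near-identical genes share signal, and the second parental genome of lager yeast adds to it by an amount not measured. The lower 5′ signal of both 30 h arrays moves with every comparison, and its part was not tested. Replicates 1 and 2 of 60 h had low 5′ signal. In replicate order at 60 h, DED1 was 31.7, 82.0 and 199, GLY1 56.8, 120.3 and 198, and ARG80 22.2, 89.8 and 163. NOP10, which also rose by 80 h, went the other way with 3286, 2219 and 2039.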

Other observations

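Peroxisomal beta-oxidation and peroxins, which serve fatty acid breakdown, had 7 of 36 tested genes higher and 6 lower at 80 h (36.1% against 45.4% of all genes). Their median was 0.08. The rises were 4 and 3 without replicates 2 and 3 of 80 h and 18 on the authors' scale. The falls were 1 without replicate 1 or 3 of 80 h and 2 without replicate 2 of 80 h. CTA1, the peroxisomal catalase, was 1992 and 1066 at 30 h and 2605, 2543 and 2833 at 80 h (log2 change 0.87 ± 0.23, adjusted p = 0.015 by limma), and FOX2, the multifunctional enzyme of beta-oxidation, was 715 and 442 at 30 h and 883, 914 and 1039 at 80 h (log2 change 0.75 ± 0.19, adjusted p = 0.014). The arrays of both times were separate in these genes. Changes without replicate 2 of 30 h were 0.42 and 0.40, and without replicate 1 1.32 and 1.09. Both calls ended without replicate 3 of 80 h (adjusted p = 0.064 and 0.062), and that of CTA1 with centred arrays (adjusted p = 0.099). Among 13 genes of pairs with an aerobic and a hypoxic form 6 were higher and 3 lower, with a median of 0.26, and the rises were 3 without replicate 1 or 3 of 80 h and 1 with centred arrays. The falls were those of the hypoxic forms ANB1 at -0.86 ± 0.20, AAC3 at -0.96 ± 0.21 and HMG2 at -0.62 ± 0.14 (limma adjusted p = 0.0083, 0.0076 and 0.0086). On the authors' scale 1 member was lower. COX5A, the aerobic form of a cytochrome oxidase subunit, was 2618 and 2126 at 30 h and 4037, 4100.0 and 4222 at 80 h (log2 change 0.80 ± 0.12, adjusted p = 0.0016), and COX5B, the hypoxic form, was 2361 and 2169 at 30 h and 3152, 3091 and 3179 at 80 h (log2 change 0.47 ± 0.10, adjusted p = 0.0073), the arrays of both times being separate. With centred arrays they were 0.42 and 0.11 (adjusted p = 0.07 and 0.56), and with a spread shared by all 14 arrays the call of COX5A ended (adjusted p = 0.19). Of 12 flocculation genes 2 were higher and 0 lower, 2 being lower at an unadjusted p under 0.05 and 5 higher on the authors' scale.

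The 30 h arrays differed in genes of glucose uptake and phosphorylation. HXT4 was 817, 1417 and 1401 on the 8 h arrays, 96.8 and 805 at 30 h and 90.3, 103 and 96.0 at 80 h, so that replicate 2 of 30 h stood nearer to 8 h and replicate 1 nearer to 80 h. HXK2 was 2833, 4412 and 4268 at 8 h, 1023 and 2822 at 30 h and 1192, 1135 and 1011 at 80 h, in the same order. The first array of 8 h is one of low 5′ signal.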
